A study of Mus musculus with 136 samples.

Results

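The SLC25 family, the mitochondrial carriers, was measured in mouse embryos and in the visceral yolk sacs that surrounded them. Its members were taken as the genes whose deposited symbol starts with Slc25a followed by a number, which gave 47 of the 47643 genes in the count table. The choice used gene symbols only and no measured value. Relatives that carry another symbol, such as the uncoupling proteins Ucp1, Ucp2 and Ucp3, are not among the 47 and were counted apart.

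Mitochondrial carriers are small proteins of the inner mitochondrial membrane, and each moves a particular set of substrates between cytosol and matrix. They exchange ADP for ATP, import phosphate, carry citrate, malate and other acids of central metabolism, shuttle amino acids and acylcarnitines, and bring in iron, glutathione and cofactors. The visceral yolk sac is the nutrient-absorbing and blood-forming membrane of the early conceptus, with a visceral endoderm epithelium and the first, primitive red cells, whereas the embryo at this age is laying down its neural tube and first somites.

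The libraries came from NOD mice, an inbred strain in which some females develop autoimmune diabetes spontaneously, at embryonic day 8.5. Each conceptus, collected from dams that were diabetic or had normal blood glucose and staged by its somite pairs, gave an embryo library and a yolk sac library. RNA was profiled by 3′ tag sequencing, in which each counted molecule, identified by a unique molecular identifier, gives 1 tag near the 3′ end of a transcript, so levels of different genes can be compared without dividing by length. The 4 libraries labelled as duplicates were left out, leaving 66 embryo and 66 yolk sac libraries of 66 concepti, with 1017901 to 5658850 counts each and a median of 2302819.

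At 5-6 somite pairs, 17 concepti from 10 normal litters (maternal glucose 105 to 164 mg/dl) were compared with 17 from 9 diabetic litters (449 to 595 mg/dl, and 1 litter recorded above the meter's scale). At 7-9 somite pairs, 16 concepti from 7 normal litters (109 to 135 mg/dl) were compared with 16 from 6 diabetic litters (423 to 568 mg/dl). No transgene, deletion or drug is named in the labels for either condition. Littermates share a dam, and 1 diabetic litter, D24M15, gave 7 of the 16 diabetic concepti at 7-9 somite pairs, so concepti of 1 litter are not separate pregnancies. In NOD mice the diabetic dams also carry autoimmune disease, and its part cannot be told apart from that of glucose in this design.

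The tissue labels were checked against markers. Visceral endoderm markers (Afp, Ttr, Apoa1 and 7 others) summed to medians of 20299 to 32285 normalized counts in the yolk sac groups and 449 to 665 in the embryo groups, and embryo-proper markers (Sox2, Pax3, Otx2 and 4 others) to 895 to 1033 in embryos and 8.41 to 24.7 in yolk sacs. In 4 libraries the correlation with the median of the other libraries of their group was under 0.92, against group medians of 0.967 to 0.979. These were the embryo (0.908) and the yolk sac (0.840) of conceptus D28M36C from a diabetic dam at 7-9 somite pairs, the yolk sac of D28M02G (0.901, diabetic, 5-6) and the yolk sac of N28M06A (0.886, normal, 5-6). The family's share of counts, the calls between tissues and the calls under maternal diabetes are also given without some or all of them. The stage differences in yolk sacs are given with them only.

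Together the members took 0.291% ± 0.0246 of all counts (SD, n = 17) in embryos of normal dams at 5-6 somite pairs, 0.270% ± 0.0172 (n = 17) in those of diabetic dams, and 0.275% ± 0.0123 and 0.276% ± 0.0107 (n = 16 each) at 7-9 somite pairs. In yolk sacs the share was 0.408% ± 0.0423 and 0.400% ± 0.0259 (n = 17 each) at 5-6 and 0.407% ± 0.0219 and 0.402% ± 0.0520 (n = 16 each) at 7-9 somite pairs. At 5-6 somite pairs the highest embryo (0.341%) and the lowest yolk sac (0.337%, N28M06A) just overlapped, and without N28M06A the lowest yolk sac of normal dams was 0.351%. At 7-9 somite pairs the highest embryo was 0.310% and the yolk sac of D28M36C was the lowest library of all at 0.216%. Without that library the yolk sac share of the diabetic group at 7-9 somite pairs was 0.414% ± 0.0165 with a lowest value of 0.383%.

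A few members held most of the family's counts. Levels below are normalized counts, that is counts divided by size factors set over all libraries of both tissues. Slc25a3, the phosphate carrier, came first in both tissues, with 2184 ± 291 (SD, n = 66) in embryos and 2878 ± 521 in yolk sacs, which was 35.7% and 29.9% of the family's total. Slc25a4, the adenine nucleotide translocator ANT1, was next with 896 ± 177 in embryos (14.7% of the family) and 2182 ± 438 in yolk sacs (22.6%).

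Slc25a39, which carries glutathione into mitochondria, and Slc25a13, the aspartate-glutamate carrier citrin, held the third and the fourth place in both tissues. Slc25a39 stood at 450 ± 116 in embryos and 605 ± 167 in yolk sacs, and Slc25a13 at 409 ± 83.1 and 594 ± 128. In each tissue the pair differed by less than either SD, so their order was not separated by the spread. In embryos the list went on with Slc25a11 (oxoglutarate carrier, 313), Slc25a51 (NAD carrier, 290), Slc25a36 (pyrimidine nucleotide carrier, 213), Slc25a46 (an outer-membrane member with a role in mitochondrial shape, 199.99), Slc25a5 (the translocator ANT2, 193) and Slc25a1 (citrate carrier, 131). In yolk sacs it went on with Slc25a37 (mitoferrin 1, the iron importer of red cell precursors, 469), Slc25a5 (455), Slc25a11 (377), Slc25a15 (ornithine carrier, 286), Slc25a51 (234) and Slc25a46 (178).

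Steadiness differed among these abundant members. Slc25a3 had a coefficient of variation of 13.3% over the 66 embryos and 18.1% over the 66 yolk sacs, whereas Slc25a5 had 51.4% and 49.5%. In embryos of normal dams at 5-6 somite pairs Slc25a5 ran from 50.1 through a median of 155 to 452, and its range in the diabetic group was 94.1 to 479. Slc25a37 varied by 26.1% in embryos and 50.2% in yolk sacs, where the library of D28M36C held the highest value, 1691, against 1100 for the next.

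**Figure D1:**
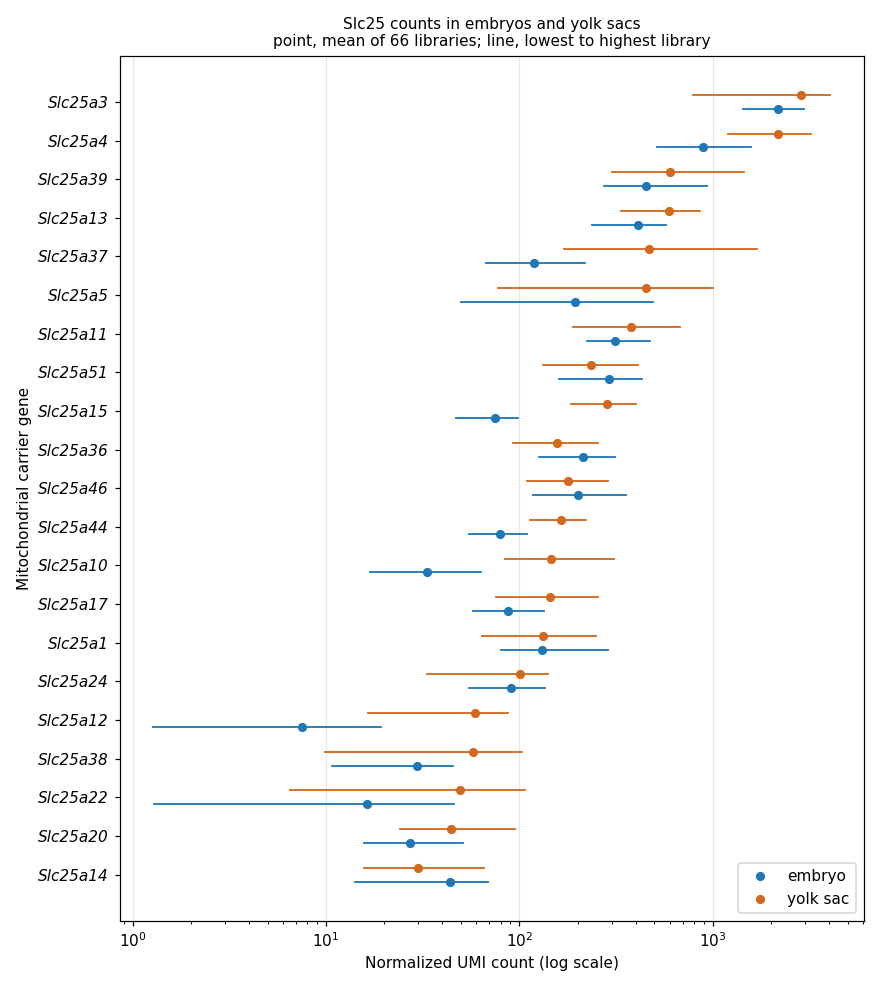
Normalized counts of the members in embryo and yolk sac libraries, on a log axis, for the members with a mean of at least 40 in either tissue, ordered by level. Each point is the mean of 66 libraries and each line runs from the lowest to the highest library. Slc25a3 and Slc25a4 have the highest means in both tissues, and the lines of Slc25a10 and Slc25a15 do not overlap between the tissues.

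At the other end, Slc25a54 had 1 count in 1 of the 66 embryo libraries and none in the 66 yolk sacs, and Slc25a41, a calcium-independent ATP-Mg carrier, had counts in 4 embryo and 6 yolk sac libraries. Slc25a2, Slc25a18, Slc25a30 and Slc25a35 averaged under 1 normalized count in both tissues. Some low members were uneven between the tissues: Slc25a43 averaged 0.362 in embryos and 5.20 in yolk sacs, and Slc25a27, the brain-associated relative UCP4, 9.07 in embryos and 1.84 in yolk sacs. A filter on low counts left 29 to 35 of the 47 members in each comparison, and the other members were not tested. No member was at 0 in every library.

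All 47 members had coordinates in GENCODE M21 (GRCm38, the assembly also called mm10). Slc25a3 lies at chr10:91116574-91124059 on the minus strand, Slc25a4 at chr8:46206797-46211284 (minus), and Slc25a37 at chr14:69241848-69285112 (minus). The X chromosome holds 4 members, namely Slc25a5 (chrX:36795651-36798807, plus), Slc25a14, Slc25a43 and Slc25a53. Exons of 2 members, Slc25a47 and Slc25a51, overlap a microRNA gene on the same strand. Exons of 12 members overlap a gene on the opposite strand, and in 7 members the overlapping gene is protein-coding, for example Rnf167 across 189 bases of Slc25a11 and Pax9 across 189 bases of Slc25a21. Whether the counting used strand is not given in the sources used here, so tags in those stretches could belong to either gene.

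The comparison of tissues within each stage gave the largest differences. At 5-6 somite pairs 24 of the 34 members tested were higher in the yolk sac and 6 were lower (edgeR quasi-likelihood test, Benjamini-Hochberg adjusted over all genes, threshold 0.05), where 39.3% of all genes tested were called higher and 39.7% lower. At the later stage 25 of 35 were higher and 5 lower, against 38.6% and 42.6% of all genes. The median log2 fold change of the members tested was 0.61 and 0.82 at these stages, and that of all genes tested was -0.0043 and -0.04. The filter on low counts lets a member in through 1 tissue alone, and a difference was then fixed by the filter: this held for Slc25a45, Slc25a12, Slc25a31 and Slc25a32 at both stages and for Slc25a21 and Slc25a42 at 7-9, through the yolk sac, and for Slc25a27 at 5-6, through the embryo. Of the members that passed in each tissue by itself, 20 of 29 were higher and 5 lower at 5-6 (40.1% and 36% of all such genes), and 19 of 29 were higher and 5 lower at 7-9 (39.2% and 39.1%), with medians of 0.58 and 0.54 against 0.03 and 0.01 for all such genes. Of the 33 members tested at both stages, 23 were called higher at both, 4 lower at both, and 0 in opposite directions. The 23 include Slc25a45, Slc25a12, Slc25a31 and Slc25a32, whose direction was fixed by the filter. The share of all genes called alike at both stages was not counted. The alternatives that follow also count all tested members. In bulk tissue, fewer cells of a type and less RNA per cell cannot be told apart. Without the 4 libraries named above, the counts were 24 higher and 7 lower at 5-6, and 25 and 5 at 7-9. With library totals alone in place of trimmed-mean scaling, the median of all genes moved to -0.20 and -0.17 and the share of calls that were higher fell from 49.7% to 38.2% at 5-6 somite pairs, while the members gave 21 higher and 8 lower there and 24 and 7 at 7-9.

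By role, all 6 tested amino acid carriers, Slc25a12 among them, and both iron carriers were called higher in the yolk sac at 5-6 somite pairs. Of the 7 tested carriers of adenine nucleotides and phosphate, 5 were higher, Slc25a31 among them, and 2 lower. Of the 8 tested carriers of cofactors and nucleotides, 6 were higher, Slc25a32 among them, and 1 lower. Of all genes tested, 39.3% were called higher and 39.7% lower. The differences of Slc25a12, Slc25a31 and Slc25a32 were fixed by the filter, so they say nothing about their roles.

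The members that passed the filter through 1 tissue are given by their levels, as a description. Slc25a45, a little characterized carrier, ran from 0 to 6.75 normalized counts in embryos over the 4 groups, with group medians of 0 to 1.25, while the yolk sac groups had medians of 15.4 to 21.5. Apart from the yolk sac of D28M36C, which had no count, the lowest yolk sac held 8.72, so the tissues did not overlap among the other libraries. The embryo mean was 4.15% of the yolk sac mean at 5-6 and 5.84% at 7-9. For the 10 visceral endoderm markers the same percentage was 1.57 to 4.87 (median 2.80) and 1.30 to 3.32 (median 1.99), and the part of yolk sac cells left on embryos in these low counts was not tested.

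For Slc25a12, the aspartate-glutamate carrier aralar, embryos of normal dams at 5-6 somite pairs held 2.20 to 9.96 with a median of 6.86, and the matched yolk sacs 29.9 to 76.0 with a median of 48.7. The D28M36C yolk sac, at 16.5, was the one yolk sac library below the highest embryo, 19.2. Its paralog Slc25a13, which passed the filter in each tissue, was the more abundant of the pair in both and was higher in the yolk sac by 0.59 (SE 0.06) and 0.57 (SE 0.08) on the log2 scale.

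Mean levels of Slc25a31, the translocator best known from germ cells, were 4.78 in embryos and 18.1 in yolk sacs at 5-6 somite pairs. Those of Slc25a32, a folate and flavin carrier, were 5.14 and 14.9 at that stage. For Slc25a21, an oxodicarboxylate carrier, the means at 7-9 somite pairs were 1.04 and 11.4, and for Slc25a42, which carries coenzyme A, 1.06 and 10.2. Slc25a27 was the one with the higher level in the embryo, with means of 9.79 there and 2.11 in the yolk sac at 5-6 somite pairs.

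Slc25a10, the dicarboxylate carrier, held 16.9 to 63.0 in all embryos and 84.7 to 308 in all yolk sacs, with no overlap between the tissues, the highest again in D28M36C. Its log2 difference was 2.17 (SE 0.07) at 5-6 and 2.14 (SE 0.09) at 7-9 somite pairs. Slc25a15, which exchanges ornithine and citrulline for the urea cycle, was likewise separated, with 47.3 to 98.7 in embryos against 185 to 403 in yolk sacs and log2 differences of 1.89 (SE 0.05) and 2.04 (SE 0.06).

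Slc25a37 in embryos had group medians of 104 to 125 and a highest value of 218, and in yolk sacs group medians of 418 to 453 and a lowest value of 170. The tissues therefore overlapped in a few libraries, and the log2 difference was 1.963 (SE 0.13) and 2.08 (SE 0.12). Slc25a28, mitoferrin 2, which serves iron import outside the red cell line, differed by 1.02 (SE 0.14) and 1.17 (SE 0.13) at a much lower level. Primitive erythroid markers (Hbb-bh1, Hba-x, Hbb-y, Gata1 and Klf1) moved with the tissue too, with a median sum of 8642 in yolk sacs of normal dams at 5-6 somite pairs and 41.4 in the embryos, and their part in the difference of Slc25a37 was not tested.

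Among the translocators, Slc25a4 was higher in the yolk sac by 1.40 (SE 0.07) and 1.24 (SE 0.07), and Slc25a5 by 1.11 (SE 0.18) and 1.38 (SE 0.15). Slc25a3, at the head of the family in both tissues, differed by only 0.54 (SE 0.05) and 0.32 (SE 0.06). Slc25a22, a glutamate carrier, was higher by 1.45 (SE 0.20) and 1.78 (SE 0.18), Slc25a44, which carries branched-chain amino acids, by 1.13 and 1.05, and Slc25a38, the glycine carrier needed for heme synthesis, by 0.75 (SE 0.10) and 1.21 (SE 0.10). Slc25a20, the carnitine-acylcarnitine carrier of fatty acid oxidation, was higher by 0.62 (SE 0.10) and 0.85 (SE 0.09).

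Lower in the yolk sac were Slc25a36 with -0.34 (SE 0.05) and -0.51 (SE 0.07), Slc25a53, an orphan carrier, with -0.71 (SE 0.09) and -0.56 (SE 0.11), Slc25a23, a calcium-regulated ATP-Mg carrier, with -0.57 and -0.56 (SE 0.10 each), and Slc25a14, the relative named UCP5 or BMCP1, with -0.45 (SE 0.09) and -0.56 (SE 0.10). Slc25a25 was lower at 5-6 (-0.34) and Slc25a51 at 7-9 (-0.37). For Slc25a1, the citrate carrier that supplies cytosolic acetyl units, the difference was 0.10 (95% interval -0.03 to 0.23) at 5-6 and -0.0004 (-0.16 to 0.16) at 7-9, neither past the threshold. At 5-6 it ran from -0.13 to 0.31 over 9 alternatives. It was called in 1 of them, diabetic pregnancies alone (edgeR adjusted p = 0.00211).

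**Figure D2:**
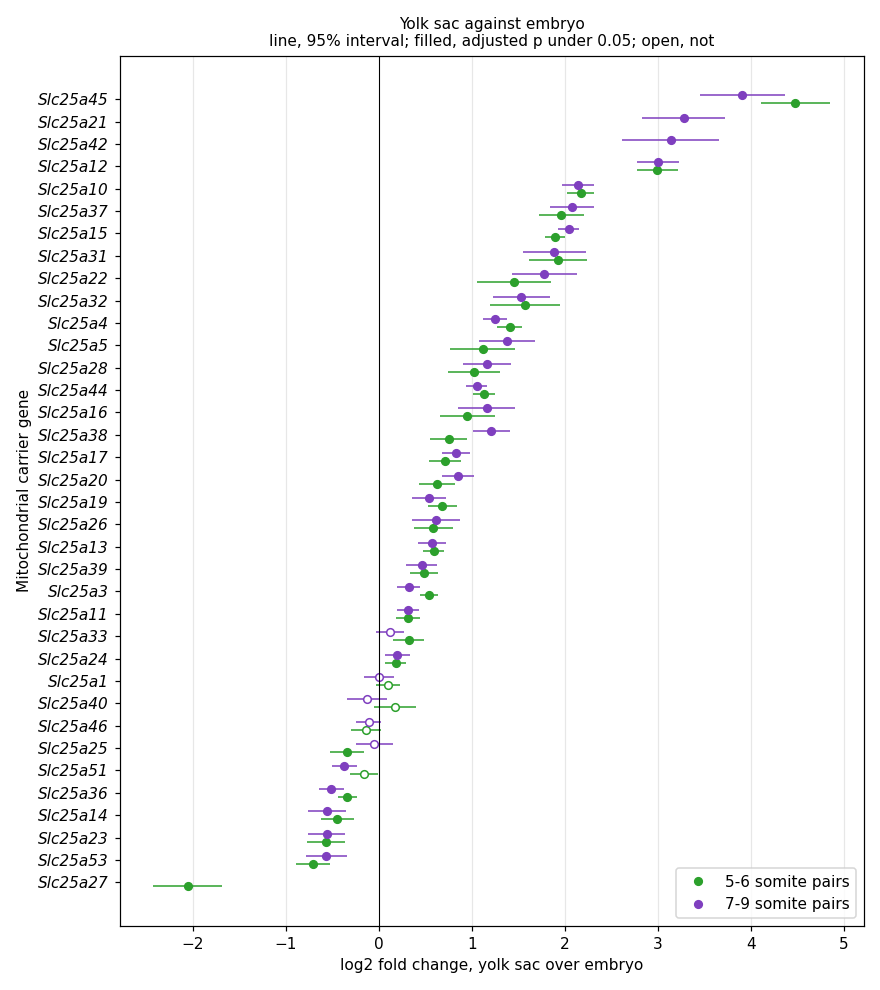
Log2 fold change of yolk sac over embryo for each tested member at 5-6 and at 7-9 somite pairs. Lines are 95% intervals, filled points passed an adjusted p of 0.05 and open points did not. Slc25a45 and Slc25a12 lie at the upper end (4.47 and 2.99 at 5-6), and Slc25a27, at -2.05, at the lower end, and all 3 passed the count filter there through 1 tissue only.

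Other genes of the mitochondrial membranes were higher in the yolk sac as well. Of 11 tested carriers and channels without an Slc25 symbol, 7 were higher and 2 lower at both stages. Mpc2, a subunit of the pyruvate carrier, differed by 1.95 and 2.16, Ucp2 by 1.43 and 1.67, and Vdac1, a channel of the outer membrane, by 0.94 and 1.14, while Mtch1 (-0.52 and -0.57) and Sfxn4 (-0.60 and -0.49) were lower. Of 12 genes taken as a measure of mitochondrial content, such as Cs, Tomm20 and Hspd1, 11 were higher at both stages, with median log2 differences of 0.40 and 0.42 over the 12. The exception was Tfam, the mitochondrial transcription factor, with -0.09 and -0.12, neither past the threshold.

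Promoter sequence was taken from RefSeq (GRCm38.p6) as the 250 bases before the transcription start, and 36 of the 47 members matched an entry, with 46 windows. The 4 below were chosen after their values were seen: Slc25a45, Slc25a12 and Slc25a10, in which at most 1 yolk sac library reached down into the range of the embryos, and Slc25a36, the most abundant of the 4 members lower in the yolk sac at both stages. Each reads 5′ to 3′ on the gene's strand, and capitals mark matches, on either strand, to the motifs searched. The windows are chr19:5877572-5877821 (plus strand) for Slc25a45, chr2:71367756-71368005 (minus) for Slc25a12, chr11:120491587-120491836 (plus) for Slc25a10 and chr9:97111042-97111291 (minus) for Slc25a36.
Slc25a45: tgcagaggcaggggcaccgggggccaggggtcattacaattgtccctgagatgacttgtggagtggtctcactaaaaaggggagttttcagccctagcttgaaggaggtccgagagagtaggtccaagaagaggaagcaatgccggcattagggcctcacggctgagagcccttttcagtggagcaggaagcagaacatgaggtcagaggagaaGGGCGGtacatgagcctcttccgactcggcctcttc
Slc25a12: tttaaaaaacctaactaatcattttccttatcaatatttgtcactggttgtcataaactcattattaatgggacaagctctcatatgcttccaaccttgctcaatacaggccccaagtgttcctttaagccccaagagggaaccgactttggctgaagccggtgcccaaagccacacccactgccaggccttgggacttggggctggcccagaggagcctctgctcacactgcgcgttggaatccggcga
Slc25a10: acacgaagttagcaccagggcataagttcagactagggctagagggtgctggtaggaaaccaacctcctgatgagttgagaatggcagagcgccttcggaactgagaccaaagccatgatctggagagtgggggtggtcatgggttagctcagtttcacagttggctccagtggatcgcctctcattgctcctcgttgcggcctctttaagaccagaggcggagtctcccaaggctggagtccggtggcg
Slc25a36: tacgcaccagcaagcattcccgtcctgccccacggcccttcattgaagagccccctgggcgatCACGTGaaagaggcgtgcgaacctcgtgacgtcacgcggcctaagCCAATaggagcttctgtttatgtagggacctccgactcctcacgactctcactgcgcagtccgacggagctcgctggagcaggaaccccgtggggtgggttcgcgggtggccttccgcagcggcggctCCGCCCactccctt
In Slc25a45 the capitals are a GC box 36 bases before the start. In Slc25a36 they are an E-box 187, a CCAAT box 142 and a GC box 14 bases before it, and the windows of Slc25a12 and Slc25a10 held none of the 7 motifs. Slc25a15, whose tissues did not overlap either, is not printed. Its windows held 6 and 2 matches, all GC boxes but for an E-box, so the printed windows do not stand for all members so separated.

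Over all member windows, the GC box (GGGCGG) was present in 69.6%, against 32.7% of the 32851 windows of all genes. The CCAAT box (CCAAT) was in 45.7% against 33.8%, the E-box (CACGTG) in 17.4% against 6.02%, and the NRF1 core (GCGCATGC) in 4.35% against 2.26%. The letters of the GATA motif (AGATAA) were in 4.35% against 9.99%, those of the HNF1 motif (GTTAAT) in 2.17% against 6.43% and those of the HNF4 motif (CAAAGTCCA) in 0% against 0.384%. Several windows belong to the same member, and a match describes the letters only.

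Between the stages, differences were smaller. In embryos 10 of 31 tested members differed between 7-9 and 5-6 somite pairs, 4 higher and 6 lower, where 14.6% of all genes tested were called higher and 15.2% lower. In yolk sacs 11 of 35 were higher and 5 lower, against 21.7% and 18.3% of all genes. Of the 30 members tested in both tissues, 2 rose in both, 4 fell in both and 0 moved in opposite directions. How many of all genes were called alike in both tissues was not counted. In normal pregnancies alone 3 of 29 members were called in embryos (0 higher, 3 lower) and 2 of 33 in yolk sacs, where 15.1% and 7.84% of all genes tested were called. In diabetic pregnancies alone 10 of 28 and 12 of 35 were called, against 29.2% and 33.7% of all genes. The stage by diabetes interaction called 1 of 31 members in embryos and 0 of 35 in yolk sacs (edgeR), against 8.70% and 0% of all genes. Of the 35, 1 had an unadjusted p under 0.05, as had 5.84% of all genes.

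Both members that rose in both tissues carry acids of central metabolism. Slc25a1 rose by 0.34 (SE 0.07) in embryos, from 117 to 147, and by 0.29 (SE 0.08) in yolk sacs, from 120 to 146. Slc25a10 rose by 0.25 (SE 0.09) and 0.27 (SE 0.07). The ranges of the stages overlapped for both.

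The 4 that fell in both were Slc25a3, Slc25a13, Slc25a36 and Slc25a39. Slc25a3 fell by 0.15 on the log2 scale in embryos. In yolk sacs it fell by 0.31, and group medians went from 3076 to 2728 in normal and from 3225 to 2567 in diabetic pregnancies. Slc25a36 fell by 0.26 and 0.38, Slc25a13 by 0.29 and 0.26, and Slc25a39 by 0.27 and 0.24. Slc25a4 moved the other way from Slc25a3 in embryos, rising by 0.26 (SE 0.06) from 821 to 975, and in yolk sacs its value was 0.15 (SE 0.07), which did not pass the threshold.

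The larger rises were in the yolk sac. Slc25a38 rose by 0.68 (SE 0.10). Its yolk sac values in normal pregnancies ran from 25.1 through a median of 46.3 to 82.2 at 5-6 somite pairs and from 34.9 through 76.2 to 98.3 at 7-9, so the groups overlapped but their medians lay apart. Slc25a5 rose by 0.61 (SE 0.17), Slc25a22 by 0.52 (SE 0.19), and Slc25a28 and Slc25a25 by 0.37 each. Slc25a12 (0.29), Slc25a17, a peroxisomal member (0.24), and Slc25a15 (0.22) were higher too, and the remaining call, Slc25a21 (0.45), passed the count filter through the later stage only. Slc25a40, a relative of Slc25a39, fell by 0.43 (SE 0.09) in yolk sacs. In embryos Slc25a33, a pyrimidine nucleotide carrier, rose by 0.24, and Slc25a53 and Slc25a24, a calcium-regulated ATP-Mg carrier, fell by 0.29 and 0.23. The rise of Slc25a33 ranged from 0.057 to 0.43 over 9 alternatives and was not called in normal pregnancies alone (edgeR adjusted p = 0.763).

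Slc25a37 did not pass the threshold between stages in either tissue (-0.02, SE 0.09, for embryos; 0.15, SE 0.15, for yolk sacs), nor did Slc25a20 (-0.13 and 0.15). Erythroid markers rose with stage in 3 of 3 tested genes in embryos and 4 of 5 in yolk sacs, visceral endoderm markers rose in 8 of 10 and fell in 1 of 10 in yolk sacs, and their part in the stage differences of the members was not tested. Of the 11 other carriers and channels tested, 3 rose in embryos and 5 in yolk sacs, where Ucp2 rose by 0.90 and Mpc2 by 0.51. Mitochondrial content genes showed 6 rises and 2 falls of 12 in embryos and 5 and 2 in yolk sacs.

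**Figure D3:**
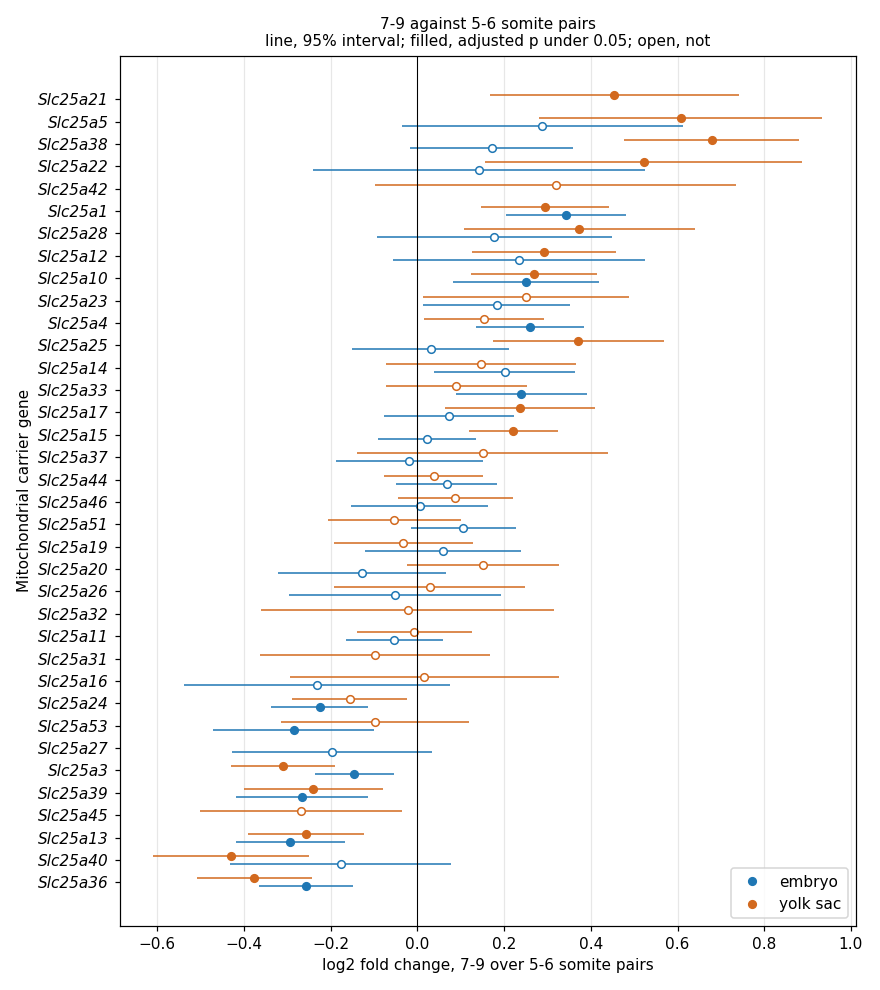
Log2 fold change of 7-9 over 5-6 somite pairs for each tested member in embryo and in yolk sac. Lines are 95% intervals, filled points passed an adjusted p of 0.05 and open points did not. Slc25a38 and Slc25a5 lie highest in the yolk sac (0.68 and 0.61), and the values of the embryo stay between -0.29 and 0.34.

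Maternal diabetes was compared with normal pregnancy within each tissue and stage, the question the collection was designed for. In embryos at 5-6 somite pairs, 1 of the 30 tested members was called, lower in the diabetic group, where 1.46% of all genes tested were called. In embryos at 7-9 somite pairs 2 of 29 were called, both lower, against 9.09% of all genes. Of the 25 members there that passed the filter in each group by itself, 1 was called, lower. Of all such genes 5.4% were called higher and 3.8% lower. In yolk sacs 0 of 33 members were called at 5-6 somite pairs (0% of all genes, edgeR) and 0 of 35 at 7-9 (0.0194%), with 3 and 2 members at an unadjusted p under 0.05 by edgeR, as were 8.42% and 10.9% of all genes. In embryos that count was 7 of 30 and 7 of 29, against 21.02% and 27.4% of all genes. DESeq2 also called 0 members in both yolk sac comparisons.

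The member called at 5-6 somite pairs was Slc25a14 (chrX:48623413-48662294, plus strand). In embryos of normal dams its level was 32.1 at the lowest, 44.8 at the median and 62.2 at the highest, and in embryos of diabetic dams 14.1, 37.3 and 44.4. The whole diabetic group thus lay at or below the median of the normal group, with overlap between 32.1 and 44.4. The means were 47.1 ± 9.01 and 34.8 ± 7.92 (SD, n = 17 each), a log2 difference of -0.43 (SE 0.11, edgeR adjusted p = 0.0405). All 9 diabetic litter means lay below the median of the 10 normal ones, and a two-sided exact permutation test of litter means gave p = 0.00147, as 1 of 5 members so tested. The 5 were picked by their calls or lowest p in these same libraries, so this raw p is not independent support. The call ended with counts summed per litter (-0.36, adjusted p = 0.357), with a random litter effect in limma (-0.40, adjusted p = 0.233) and with the first principal component as a covariate (-0.34, adjusted p = 0.0925). Leaving out 1 litter at a time ended the call for 11 of 19 litters (D23M11, D24M22, D28M23, D28M53, N24M29, N28M03, N28M05, N28M06, N28M22, N28M25 and N28M30), with the highest adjusted p without N28M06 (0.202) and D28M53 (0.161). The log2 difference ranged from -0.46 to -0.34 over the 27 alternatives, of which 12 kept the call. For 7-9 somite pairs the means were 48.4 ± 11.6 and 44.6 ± 9.83 (n = 16 each), and the log2 difference of -0.11 (SE 0.12) did not pass the threshold.

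Slc25a14 is X-linked, and the sexes were not evenly split. The normal group at 5-6 somite pairs had 9 males and 8 females and the diabetic group 11 and 6. With somite number and sex as covariates the log2 difference of Slc25a14 was -0.42 with an adjusted p of 0.0662, and sex alone was not tested.

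At 7-9 somite pairs the members called in embryos were Slc25a53 (chrX:136981116-137038302, minus strand) and Slc25a16 (chr10:62920633-62946498, plus strand), the latter linked to mitochondrial coenzyme A. Slc25a53 was 18.8, 32.2 and 39.4 at the lowest, median and highest in the normal group and 10.4, 21.8 and 35.5 in the diabetic group. The diabetic median lay near the low end of the normal range, and most of the ranges overlapped. The log2 difference was -0.43 (SE 0.14, edgeR adjusted p = 0.0405), 4 of the 6 diabetic litter means were below the normal median, and the exact permutation test over litters gave p = 0.146. Leaving out 1 litter at a time ended the call for 7 of 13 litters (D24M15, D28M23, D28M31, N24M21, N28M03, N28M05 and N28M07), and without D24M15 the log2 difference was -0.32 (adjusted p = 0.205). It also ended with litter sums (-0.28, adjusted p = 0.427), a litter block (-0.41, adjusted p = 0.126) and the principal component (-0.34, adjusted p = 0.134).

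Slc25a16 was a member of low count, with 5.44, 12.98 and 22.7 in the normal group and 2.78, 9.27 and 15.02 in the diabetic group. The groups overlapped from 5.44 to 15.02, and the lowest value, from the D28M36C embryo, rested on 2 counts. Its log2 difference was -0.68 (SE 0.22, edgeR adjusted p = 0.0443). It reached the count level of the filter in 6 diabetic and 13 normal libraries, where 14.2 were needed. It was therefore tested only because the groups were pooled, and it passed in neither group by itself. Without the filter the difference was -0.69 (edgeR adjusted p = 0.0722), not past the threshold. All 6 diabetic litter means were below the normal median, with a raw exact permutation p of 0.00408. This member was likewise picked by its call in these libraries, so that p is not independent support. With litter sums the difference was -0.71 (adjusted p = 0.104), with a litter block -0.71 (adjusted p = 0.124) and with the principal component -0.38 (adjusted p = 0.227), so none of these kept the call. Over the 32 embryos of this stage the level of Slc25a16 correlated with that component at 0.757, and the component's part in the difference was not tested. The call ended for 10 of 13 litters left out in turn, all but D23M26, D28M24 and N28M05, with an adjusted p of 0.0912 at most (without D28M23). With the D28M36C embryo left out, neither member was called, with -0.63 (adjusted p = 0.0684) for Slc25a16 and -0.39 (adjusted p = 0.0639) for Slc25a53.

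**Figure D4:**
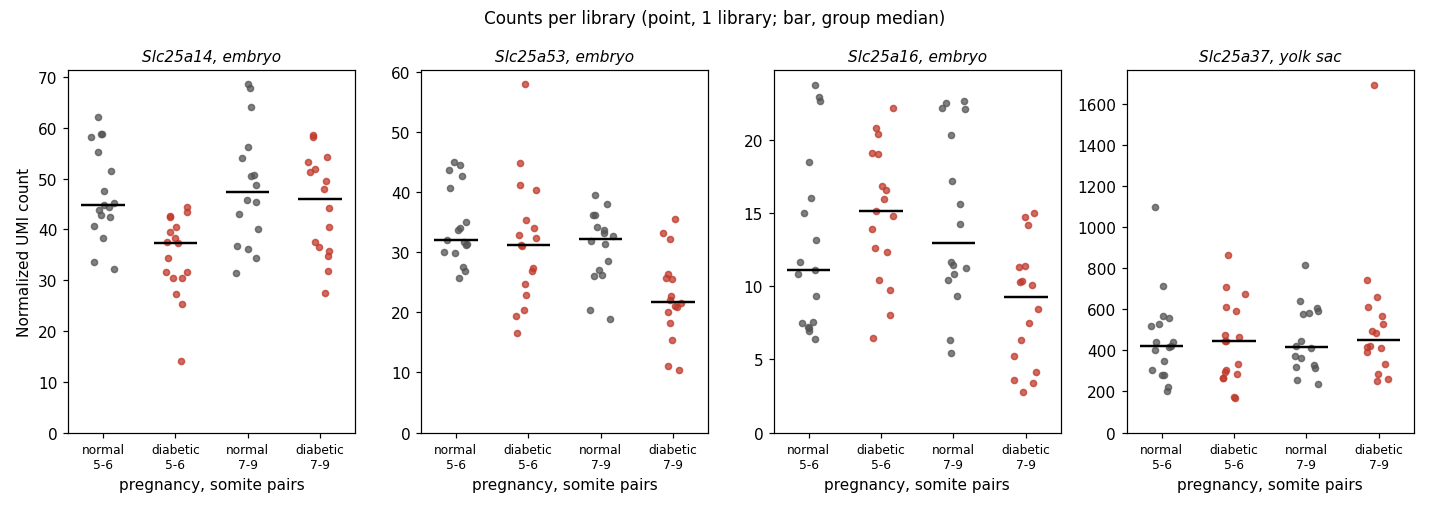
Normalized counts of Slc25a14, Slc25a53 and Slc25a16 in embryos and of Slc25a37 in yolk sacs, 1 point per library by maternal condition and somite pairs, with a bar at each group's median. Slc25a14 at 5-6 and Slc25a53 and Slc25a16 at 7-9 somite pairs have lower diabetic medians (37.3, 21.8 and 9.27) than normal medians (44.8, 32.2 and 12.98), and every pair of groups overlaps. In the yolk sac panel 1 library, D28M36C, stands alone at 1691.

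The next members by p in diabetic against normal embryos did not pass the threshold. At 5-6 somite pairs Slc25a11 had a log2 difference of -0.26 (SE 0.08, adjusted p = 0.0869 by edgeR), with 266 to 475 and a median of 338 in the normal group and 225 to 374 and a median of 296 in the diabetic group. Slc25a51 had -0.27 (adjusted p = 0.101), Slc25a33 -0.35 (adjusted p = 0.101) and Slc25a46 -0.30 (adjusted p = 0.133). At 7-9 somite pairs Slc25a38 had -0.36 (adjusted p = 0.0794), Slc25a51 -0.22 (adjusted p = 0.0881) and Slc25a24 -0.19 (adjusted p = 0.137), while Slc25a37 (0.27, adjusted p = 0.141) and Slc25a39 (0.29, adjusted p = 0.144) had positive values. The median log2 difference of the members in embryos was -0.11 at 5-6 and -0.04 at 7-9 somite pairs, and that of all genes tested was 0.0038 and -0.0099.

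The most abundant members showed small values with narrow intervals. Slc25a3 had -0.11 (95% interval -0.25 to 0.03) in embryos at 5-6 and 0.03 (-0.09 to 0.16) at 7-9 somite pairs, and -0.03 (-0.17 to 0.11) and -0.13 (-0.34 to 0.07) in yolk sacs. In the same order Slc25a4 had 0.03, 0.06, -0.20 and -0.04. For Slc25a5, whose libraries vary widely, the interval in yolk sacs at 5-6 somite pairs reached from -0.88 to 0.14.

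In yolk sacs, the members with the lowest p were Slc25a10 at 5-6 and Slc25a13 at 7-9 somite pairs. Slc25a10 ran from 92.0 through 123 to 189 in the normal group and from 87.2 through 147 to 211 in the diabetic group, a log2 difference of 0.24 (SE 0.10, edgeR adjusted p = 0.55) with an exact permutation p of 0.118 over litters. Later, at 7-9 somite pairs, its difference was 0.30 (SE 0.11, edgeR adjusted p = 0.365). Slc25a13 ran from 375 through 582 to 855 and from 334 through 460 to 709, a difference of -0.28 (SE 0.11, edgeR adjusted p = 0.365, exact permutation p = 0.241 over litters). Both pairs of groups overlapped across most of their ranges.

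**Figure D5:**
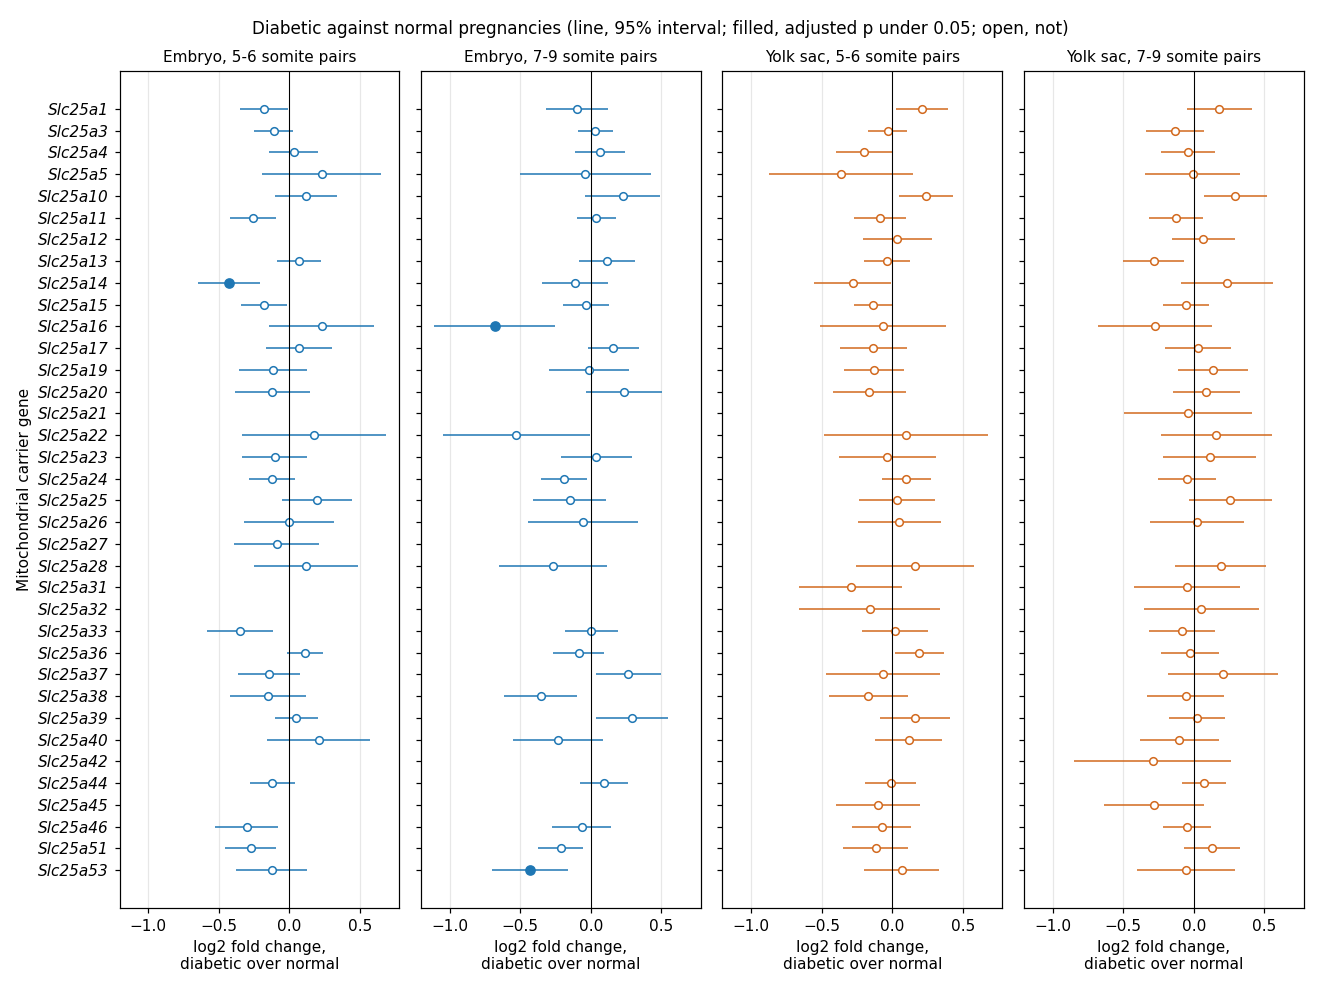
Log2 fold change of diabetic over normal pregnancies for each tested member in embryo and yolk sac at both stages. Lines are 95% intervals, filled points passed an adjusted p of 0.05 and open points did not. The called members are Slc25a14 at 5-6 and Slc25a53 and Slc25a16 at 7-9 somite pairs, all in embryos and all negative (-0.43, -0.43 and -0.68). Slc25a16 passed the count filter there in neither group by itself.

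Other mitochondrial carriers and channels gave 0 calls of 10 in embryos at 5-6 somite pairs (edgeR, 4 at an unadjusted p under 0.05) and 1 of 11, higher, at 7-9. Mitochondrial content genes gave 0 of 12 and 3 of 12, all higher. Of all genes tested, 1.46% were called at 5-6 and 9.09% at 7-9, and 21.02% had an unadjusted p under 0.05 at 5-6. The visceral endoderm markers tested had positive values in 7 of 8 genes in embryos at 5-6 and in 8 of 8 at 7-9 somite pairs, none past the threshold by edgeR (1 and 0 at an unadjusted p under 0.05). Primitive erythroid markers tested in embryos were positive in 3 of 3 at 7-9 somite pairs, with a median log2 difference of 1.23 and none past the threshold by edgeR (1 at an unadjusted p under 0.05, Hba-x with 1.63 and an adjusted p of 0.0941), and the 1 tested at 5-6 had -0.12. For both marker lists their part in the embryo differences was not tested.

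Whether the difference under maternal diabetes itself differed between tissues or stages was tested as an interaction. Between tissues 0 of 34 members were called at 5-6 somite pairs (0% of all genes) and 0 of 35 at 7-9 (0.389%). By edgeR 2 and 6 members had an unadjusted p under 0.05, as had 7.66% and 17.7% of all genes. Between stages in the yolk sac 0 of 35 were called (0% of all genes). There 1 member had an unadjusted p under 0.05, as had 5.84% of all genes. Between stages in the embryo 1 of 31 was called, against 8.70% of all genes. This was Slc25a16, with an interaction of -0.91 (SE 0.30, edgeR adjusted p = 0.0428), as its diabetic mean was 14.99 against 12.8 in normal pregnancies at 5-6 somite pairs and 8.68 against 14.6 at 7-9. Without the D28M36C embryo the interaction was -0.86 (adjusted p = 0.0589). Concepti were the replicates in this fit, and no alternative that accounts for litters was run for it.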

How the data were processed

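Embryo and yolk sac libraries were prepared by the study with a 3′ tag kit that carries unique molecular identifiers. The deposited values are raw counts of deduplicated tags per gene, made by the authors with STAR, HTSeq and the mm10 genome per the labels and the submitters' processing notes. Tool versions, the gene annotation and the strand setting are not given in the sources used here. Groups follow the tissue and maternal condition in the labels and the somite pairs on the embryo labels. Labels of yolk sacs gave no somite number, so each took that of the embryo with the same conceptus code in its title. The 4 duplicates were left out.

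Counts were tested in R 4.3.3 with edgeR 4.0.16 (TMM scaling, filterByExpr with a minimum count of 10, quasi-likelihood test, Benjamini-Hochberg adjustment over all genes tested, threshold 0.05). Diabetic and normal libraries were compared within tissue and stage without covariates, and tissues and stages were compared with maternal condition as a covariate. Levels are counts divided by DESeq2 1.42.0 size factors over all 132 libraries. P-values over concepti measure their spread, and littermates share a dam, so litter means of log2(normalized count + 1) were also compared by exact permutation. That was done for 5 members, picked by their calls or lowest p in the diabetic comparisons, and its p-values are raw. Counts carry counting error only at depths of 1017901 to 5658850.

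Embryo and yolk sac of 1 conceptus were taken as paired by their shared label. Their deviations from the group means correlated with a median of 0.105 over 34 pairs at 5-6 and 0.0441 over 32 pairs at 7-9 somite pairs. All 132 libraries matched their own sex label, and 2 concepti carried different sex labels on embryo and yolk sac. In those 2 the Xist and Y-linked counts differed between embryo and yolk sac as well. Their pairing, and with it the stage of their yolk sacs, is therefore uncertain.

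Named members were the 10 most abundant of each tissue, the called members (or the member with the lowest p) of each diabetic comparison, the 8 largest called differences per direction between tissues and stages with a group mean of at least 10, and 9 fixed carriers of nucleotides, citrate, carnitine, iron, glycine and glutathione. Further members close to these in role or value were named after their values were seen. The members and lists were chosen with earlier results of these data known. Alternatives covered DESeq2, other scalings, no count filter, each maternal condition alone, covariates, litter sums, litter and conceptus blocks (limma 3.58.1) and leaving out each litter. Leaving out the 4 libraries under 0.92, adding the first principal component as a covariate and counting only genes that passed the filter in each group by itself were chosen after seeing the data. The tests were checked on simulated counts drawn without a litter effect, so that check says nothing about the dependence of littermates.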

Additional observations from a re-analysis of the deposited data

Results flagged for a closer look

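The difference of Slc25a16 under maternal diabetes in embryos was called different between the stages over concepti, with an interaction of -0.905 on the log2 scale (SE 0.30, edgeR adjusted p = 0.0428). The diabetic mean was higher than the normal one at 5-6 somite pairs (14.99 and 12.8 normalized counts) and lower at 7-9 (8.68 and 14.6). Without the D28M36C embryo the interaction was -0.86 (adjusted p = 0.0589), and without the filter on low counts -0.89 (adjusted p = 0.0946), both by edgeR. It was not refitted with litter sums, a litter block or litters left out, so its dependence on litters is not known.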

How the results depend on the processing

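Counts of called members between tissues stayed within 1.5 times of those reported under every alternative run. The replicate block, which pairs the libraries of 1 conceptus, gave 32 calls (25 higher, 7 lower) at 5-6 and 30 at 7-9 somite pairs and changed no other count of calls. Between stages, normal pregnancies alone gave 3 calls in embryos against 10 and 2 in yolk sacs against 16, while calls over all genes went from 3367 to 1615 and from 4340 to 785. Of the diabetic comparisons, the 1 call in embryos at 5-6 somite pairs went to 0 with the first principal component, with somite number and sex as covariates, with litter sums and with a litter block, and ranged from 0 to 3 when litters were left out in turn. The 2 calls at 7-9 went to 0 without the libraries under 0.92, without the count filter, with litter sums and with a litter block. Somite number and sex as covariates left 1, Slc25a53, as did counting only genes that passed the filter in each group by itself. Over litters left out the count ranged from 0 to 2. With the principal component both calls were lost and 1 other member was called, higher (edgeR adjusted p = 0.000852). The number in the sample titles as a covariate gave 5 calls (2 higher, 3 lower). Calls over all 10628 genes tested went from 966 to 549 with the component and to 1714 with the title number. The stage by diabetes interaction in embryos went from 1 to 0 calls without the libraries under 0.92 and without the count filter. The yolk sac comparisons stayed at 0. The causes were not tested.

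Single members that changed sign were, between tissues at 5-6, Slc25a1 with library totals (-0.092) and in normal pregnancies (-0.13), and at 7-9 Slc25a1 without the libraries under 0.92 (0.024), without the filter (0.046), in diabetic pregnancies (0.12) and with the replicate block (0.0048). Between stages they were Slc25a20 (0.061) and Slc25a37 (0.20) in embryos of diabetic pregnancies and Slc25a37 (-0.0035) in yolk sacs of normal ones. In the diabetic comparison of embryos at 7-9 it was Slc25a39 with the principal component (-0.059). None of these had been called in the comparisons reported above. Between tissues at 5-6, Slc25a1 was called in diabetic pregnancies alone (edgeR adjusted p = 0.00211). Depth limits the members with few counts, of which the filter left out all but 29 to 35 of 47.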

Other observations

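Within the 8 groups, the level of Slc25a37 was set against the summed primitive erythroid markers of the same library, and within the 4 embryo groups Slc25a45 and Slc25a12 were set against the summed visceral endoderm markers, 16 relations in all. Slc25a37 followed the erythroid sum in yolk sacs of diabetic dams at 5-6 somite pairs (Pearson's r = 0.779, permutation p = 0.00025, adjusted 0.004, and Spearman's rho = 0.775, permutation p = 4e-04, adjusted 0.0064, n = 17). Without the 2 libraries farthest from the median of the erythroid sum r was 0.636, and over the 13 libraries with a littermate, taken as deviations within litters, it was 0.938. In the other 3 yolk sac groups r was 0.299 (normal, 5-6), 0.515 (normal, 7-9) and 0.354 (diabetic, 7-9), none past the adjusted threshold. Without 2 libraries it was 0.024, 0.572 and 0.626 in that order, and within litters 0.151, 0.583 and -0.385. Whether the groups differ in this relation was not tested. In embryos of diabetic dams at 7-9 somite pairs r was 0.647 (permutation p = 0.00724, adjusted 0.0579) and fell to 0.166 without 2 libraries, so it rests on those samples. For Slc25a45 against the visceral endoderm sum r was -0.23 to 0.25 over the embryo groups, and for Slc25a12 it was 0.18 to 0.58, with no adjusted p under the threshold. Littermates share a dam, so these libraries are not fully independent.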
